A study of Zea mays with 2 samples.

Results

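The strong loops of the maize leaf genome, as defined here, were chromatin loops of under 500 kb on chromosomes 1 to 10 that were seen in at least 20 contacts and at least 10 times as often as their surroundings predicted. They were picked out from the loops called in each of 2 Hi-C replicates. Replicate 1 held 593 strong loops among its 16114 loops of under 500 kb, 3.68% of them, and replicate 2 held 468 among 24662, 1.9% of them. The complete lists comprised 17201 loops in replicate 1 and 25917 in replicate 2, with those on unplaced sequence and those of 500 kb or more included. Hi-C joins and sequences DNA fragments that lie near each other in the nucleus, and here it was performed on whole leaves of B73, a maize inbred line, at development stage v04. Both replicates form 1 untreated group, each from the pooled leaves of several plants of the same batch, so that the strong loops could be set against other loops of the same replicate and against the other replicate, but not against another genotype or treatment. Whole leaf holds several cell types, and a loop of a few cells cannot be told apart from a weak loop of many.

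A chromatin loop is a pair of distant stretches of a chromosome, its anchors, that meet more often than the DNA between and around them. In animals many loop anchors are held by the protein CTCF, which plants lack, and in plants with large genomes loops have been described between active genes and distal regulatory regions, over long tracts of repeats. Maize chromosomes are further divided into TAD-like domains, stretches that contact themselves more than their neighbours. The largest are termed level 0 and may hold nested sub-domains. The loop caller HICCUPS tests each pixel of the contact map, a pair of bins as wide as an anchor, against 4 local backgrounds. The donut is a ring around the pixel, the lower left is the part of it nearer to the diagonal and thus inside the loop, and the horizontal and vertical backgrounds run along the row and the column of the pixel, where a stripe from 1 anchor would lie.

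The replicates did not offer the same loops for choice. Replicate 1 had been called with anchors of 3 widths, and its strong loops were drawn very unequally from them. Of 5702 loops with 5-kb anchors 509 were strong (8.93%, 95% Wilson interval 8.21 to 9.69%), against 69 of 6732 with 10-kb anchors (1.02%, 0.811 to 1.30%) and 15 of 3680 with 25-kb anchors (0.408%, 0.247 to 0.671%). In replicate 2 every loop had 10-kb anchors. The total contacts of each library were not used here. Loops of under 500 kb had a median of 21 contacts in replicate 1 and 33 in replicate 2, which is not a measure of depth alone. The median moved with anchor width, being 15, 21 and 43 in the other loops of replicate 1 with 5-kb, 10-kb and 25-kb anchors. The replicate, its anchor widths and the version of the loop caller cannot be told apart, and values are therefore given per replicate. The other loops of under 500 kb served as the comparison and were weighted so that their anchor widths and lengths, in classes of 50 kb, had the same proportions as in the strong loops. Intervals are 95% Wilson intervals. They treat each loop as an independent count and hold no other source of error.

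The contacts, the donut expectation and their ratio chose the strong loops and are given as a description. Strong loops had 26 contacts in the median in replicate 1 (quartiles 22 and 32, at most 340) and 85 in replicate 2 (quartiles 52 and 121, at most 738). The ratio of observed to expected contacts had a median of 13.1 in replicate 1 (quartiles 11.2 and 16.6) and 11.6 in replicate 2 (quartiles 10.6 and 13.6). Most strong loops thus stood close to the limit of 10. The ratio was 20 or more in 100 strong loops of replicate 1 and 28 of replicate 2, and 50 or more in 21 and in 5. The expectations behind these ratios were small, with a median of 1.95 contacts in replicate 1 and 6.91 in replicate 2. Fewer than 1 contact was expected at 40 strong loops of replicate 1 and 6 of replicate 2, and fewer than 2 at 325 and at 25. A ratio that rests on so small an expectation moves by a large factor with a single contact more or less in the background.

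**Figure D1:**
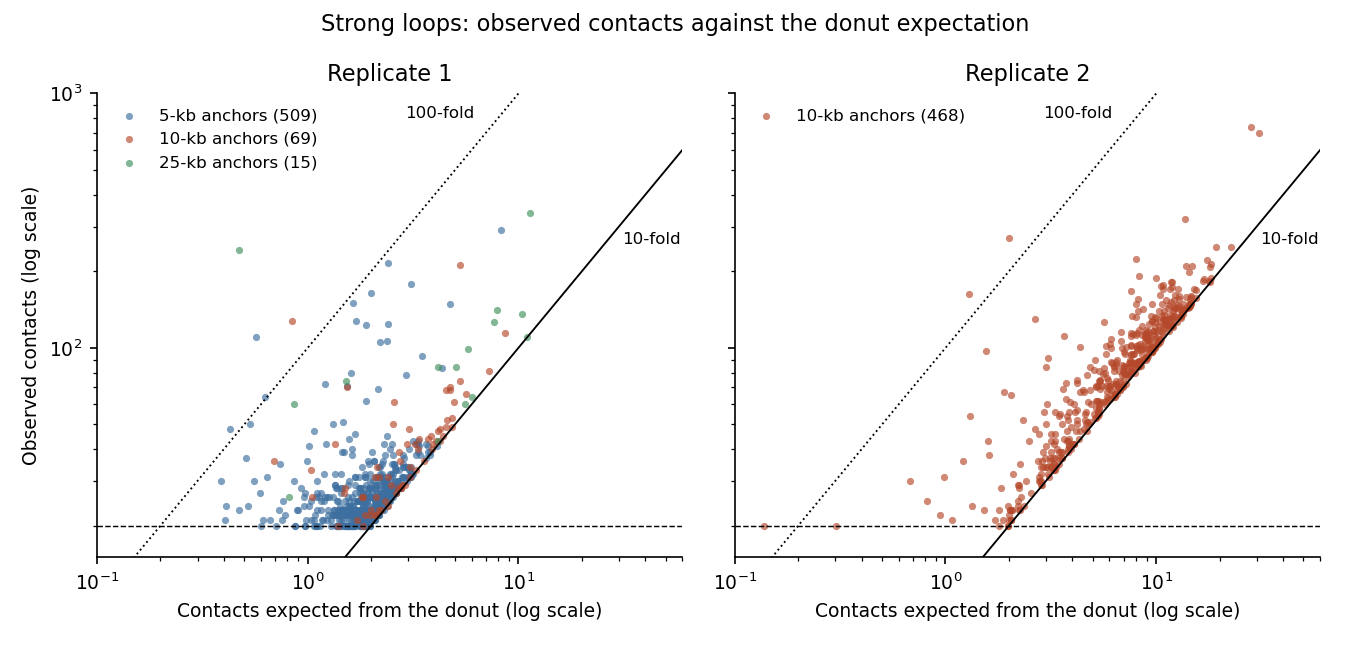
Each point is a strong loop, with the contacts expected from the donut on the horizontal axis and the observed contacts on the vertical axis, both on a log scale, for replicate 1 (left) and replicate 2 (right). Colours give the anchor width, the solid line a ratio of 10, the dotted line a ratio of 100 and the dashed line 20 contacts; replicate 1 crowds at the lower limit of contacts with a median of 26, while replicate 2 lies along the 10-fold line with a median of 85 contacts.

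The limits of the choice cut through dense parts of both lists. A ratio between 10 and 11 was found in 123 strong loops of replicate 1 and 170 of replicate 2, while 188 and 290 further loops with enough contacts had ratios between 9 and 10. Just inside the limit in replicate 1 lay a loop with 38 contacts and a ratio of 10.003 (chr1:12550001-12555000 with chr1:12590001-12595000, coordinates of B73 RefGen_v4 throughout), and just outside it a loop with 23 contacts and a ratio of 9.96 (chr2:49485001-49490000 with chr2:49525001-49530000). In replicate 2 the neighbours of the limit were loops with 33 contacts and a ratio of 10.0005 (chr5:195390001-195400000 with chr5:195520001-195530000) and with 119 contacts and a ratio of 9.9997 (chr2:12420001-12430000 with chr2:12490001-12500000). The limit on contacts bore mainly on replicate 1, where 110 strong loops had 20 or 21 contacts and 133 loops of sufficient ratio had 18 or 19, against 11 and 9 in replicate 2. In all, 856 loops of replicate 1 and 36 of replicate 2 had the ratio and not the contacts. The limit on length left out 38 loops of replicate 1 and 44 of replicate 2 that met both other criteria.

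Strong loops were short. Their median length, from the start of one anchor to the start of the other, was 75 kb in replicate 1 (quartiles 50 and 110 kb) and 95 kb in replicate 2 (quartiles 50 and 160 kb), against unweighted medians of 120 and 110 kb for the other loops. In replicate 1 this followed the anchor widths in part. Strong loops with 5-kb anchors had a median of 70 kb, as did the other loops with 5-kb anchors, while those with 10-kb anchors had 100 kb against 120 kb, and those with 25-kb anchors 100 kb against 225 kb. The share of loops that were strong was 8.06% under 50 kb and 0.523% from 300 to 400 kb in replicate 1. In replicate 2 it lay between 1.14 and 2.41% in every length class, with its highest value from 50 to 100 kb. The longest strong loop spanned 490 kb in each replicate. In replicate 1 this was the loop of chr1:222100001-222110000 with chr1:222590001-222600000, from 22 contacts and 11.8 times the expectation, whose anchors lay at both ends of a domain of level 2 that was itself 490 kb long. In replicate 2 a pair of loops had this length. The loop of chr8:32210001-32220000 with chr8:32700001-32710000, from 38 contacts and 23.5 times the expectation, had neither anchor in any loop of replicate 1, whereas that of chr5:119220001-119230000 with chr5:119710001-119720000, from 42 contacts and 10.4 times the expectation, recurred there. The shortest strong loops spanned 35 kb in replicate 1, for example chr9:62230001-62235000 with chr9:62265001-62270000 from 215 contacts (89.5 times the expectation), and 40 kb in replicate 2, for example chr1:289640001-289650000 with chr1:289680001-289690000 from 67 contacts (35.5 times).

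The largest ratio of replicate 1 belonged to the 25-kb anchors chr9:57375001-57400000 and chr9:57625001-57650000, where 242 contacts were observed and 0.473 expected, 512 times as many. They lay at both ends of a level 0 domain from 57380001 to 57640000. In replicate 2 only 1 of these anchors was found in a loop. The anchor chr9:57390001-57400000 there joined chr9:57430001-57440000 over 40 kb with 738 contacts, the most of any strong loop, at 26.3 times the expectation. The second ratio of replicate 1 was that of chr4:214990001-214995000 with chr4:215045001-215050000, with 110 contacts and 194 times the expectation, and the loop of replicate 2 over these anchors had 130 contacts and 49.1 times the expectation. In replicate 2 the largest ratio, 145, rested on 20 contacts where 0.138 were expected, between chr9:131770001-131780000 and chr9:131900001-131910000. Replicate 1 had a loop over these anchors with 14 contacts and a ratio of 144, which missed the limit on contacts. The second, 135, was that of chr1:137020001-137030000 with chr1:137110001-137120000, from 270 contacts. In replicate 1 the 25-kb anchors chr1:137000001-137025000 and chr1:137100001-137125000 held the same place with 340 contacts, the most of that replicate, and 30.1 times the expectation. Apart from the loops at the start of that domain on chromosome 9, each of these places was called as a loop in both replicates, and the ratios were close in both at the last place on chromosome 9 only. The rest of the 5 largest ratios were 150 on chromosome 5, described with the pairs, 112 (chr10:132440001-132445000 with chr10:132900001-132905000, 13.6 in replicate 2) and 103 (chr4:241130001-241135000 with chr4:241195001-241200000, not recurring) in replicate 1, and in replicate 2 likewise 126 on chromosome 5, 66.1 (chr2:8250001-8260000 with chr2:8400001-8410000, 33.4 in replicate 1 from 13 contacts) and 62.2 (chr7:148270001-148280000 with chr7:148320001-148330000, not recurring).

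A further pair of strong loops stood out by contacts in both replicates. The anchors chr6:91000001-91005000 and chr6:91065001-91070000 gave 290 contacts in replicate 1, 35.1 times the expectation, and the anchors chr6:91000001-91010000 and chr6:91060001-91070000 gave 698 contacts in replicate 2, 22.7 times. On chromosome 5, chr5:152460001-152470000 with chr5:152510001-152520000 had 320 contacts in replicate 2 at a ratio of 23.4, and the replicate 1 loop over it had 124 contacts at 51.7. The donut expectation of the loop on chromosome 6 was 8.26 contacts in replicate 1 and 30.7 in replicate 2. Its background was thus high as well, above the strong-loop medians of 1.95 and 6.91.

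The 15 strong loops with 25-kb anchors, all of replicate 1, had between 26 and 340 contacts (median 84) and ratios from 10.06 to 512, and 8 of them spanned 100 kb, the shortest length among them. At 4 of the 15 no contact at all was expected from the lower left background. At chr5:216625001-216650000 with chr5:216725001-216750000, for example, 74 contacts were observed against a donut expectation of 1.52, a ratio of 48.8, while the horizontal and vertical expectations were 17.8 and 21.03 and the ratios to them 4.17 and 3.52. The loop of chr7:136125001-136150000 with chr7:136225001-136250000 likewise had 141 contacts, 17.9 times the donut but 4.26 times the horizontal and 3.74 times the vertical expectation. The strength of both loops thus depended on which background was taken. They were picked as examples after their values had been seen.

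The donut alone entered the choice, and the other 3 backgrounds, which come from the same pixels, were described beside it. The lower left background was much like the donut, and the median ratio to it was 13.3 in replicate 1 and 12.3 in replicate 2. The ratios to the horizontal and vertical backgrounds were smaller, with medians of 9.03 and 9.26 in replicate 1 and of 8.77 and 8.40 in replicate 2. Of the 593 strong loops of replicate 1, 515 reached 10 against the lower left, 252 against the horizontal and 254 against the vertical background, and of the 468 of replicate 2, 334, 163 and 150 did. All 4 backgrounds were exceeded 10 times or more by 131 strong loops of replicate 1 (22.1%) and 56 of replicate 2 (11.97%). The largest of the 4 expectations was the horizontal or the vertical one at 91.9% of strong loops in replicate 1 and 89.96% in replicate 2, against weighted shares of 85.3 and 84.7% of the other loops. The row or the column of an anchor was thus the brightest surrounding of most loops of either kind, and slightly more often of strong ones. The least favourable of the 4 ratios had a median of 7.53 in replicate 1 and 7.2 in replicate 2, against 4.44 and 3.01 for the weighted other loops, and the lowest of any strong loop were 2.06 and 2.25. The lower left expectation was 0 at 7 strong loops of replicate 1 and 3 of replicate 2, and the horizontal one at 4 of replicate 1, where no ratio to it can be given. In the counts above these loops were taken as reaching 10 against that background. False discovery rates above 0.01 against any background were given for 3 strong loops of replicate 1 (0.506%) and for none of replicate 2, against weighted shares of 23.2 and 13.5% of the other loops.

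HICCUPS merges neighbouring pixels that pass its tests into 1 loop. More than 1 pixel had been merged at 88.0% of the strong loops of replicate 1 and at 85.5% of those of replicate 2, against weighted shares of 66.4 and 61.7% of the other loops. The mean over both replicates was 86.7% ± 1.81 for strong loops and 64.0% ± 3.33 for the other loops (SD, n = 2 replicates). Strong loops consisted of a median of 4 merged pixels in replicate 1 and 3 in replicate 2, against 2 in the other loops of each, with at most 12 and 8 pixels. These pixels are the ones that made the loops strong, so that the difference is a description. In replicate 1 it was much smaller beside other loops that also had 20 or more contacts, of which 82.3% were merged from several pixels.

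Whether a loop was found again is measured in the other replicate, which had no part in choosing it. A loop was counted as recurring when both of its anchors overlapped those of 1 loop of the other replicate. Of the strong loops of replicate 1, 426 of 593 recurred in replicate 2 (71.8%, interval 68.1 to 75.3%), against 47.1% of all loops of under 500 kb of that replicate and a weighted share of 52.7% of the other loops. Of the strong loops of replicate 2, 335 of 468 recurred in replicate 1 (71.6%, 67.3 to 75.5%), against 30.8% of all loops of under 500 kb and a weighted 30.6% of the other loops. At these limits the strong loops recurred at nearly the same rate in either direction, while the other loops did not. At other limits the directions parted, with 68.4% for replicate 1 and 77.2% for replicate 2 at a ratio of 15 or more, and 63.3 and 74.9% with 40 or more contacts. With 10-kb anchors alone in both lists they were 75.4 and 20.1%. That setting took the 5-kb and 25-kb loops out of replicate 1 and none out of replicate 2. Strong loops of replicate 2 thus had fewer loops to recur in, as had its other loops, from which they then differed by 7.52 points. At the main limits the difference between strong and other loops was 19.1 percentage points in replicate 1 and 41.02 in replicate 2. The mean of both directions was 71.7% ± 0.182 for strong loops against 41.6% ± 15.7 for the other loops (SD, n = 2 directions). Both directions compare the same lists, so that this SD does not measure a spread between independent replicates. Of the strong loops of replicate 1 that did not recur, 38 had their anchors in different loops of replicate 2, 83 had a single anchor there, and 46 (7.76% of the 593) had none, against a weighted 6.42% of the other loops. In replicate 2 a single anchor was found again for 47 strong loops and none for 10 (2.14%, 1.16 to 3.89%), against 11.3% of the other loops.

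The number of contacts moved with recurrence and separated the replicates. In replicate 1, the other loops with 20 or more contacts recurred nearly as often as the strong ones (71.8%), with a weighted share of 68.2%, which lies inside the interval of the strong loops. For 5-kb anchors the values were 73.1% of 509 strong loops and 71.3% of the other loops with 20 or more contacts. For 10-kb anchors they were 75.4% of 69 strong loops and 53.7% of the others. These 10-kb groups differed in contacts, with medians of 36 and a weighted 24. Among 10-kb loops with 20 to 29 contacts, 64% of 25 strong loops and 48.9% of 2951 others recurred. With 30 to 39 contacts the shares were 66.7% of 12 and 60.6% of 759. Strong 10-kb loops had the higher share in every class of contacts where both kinds existed, but the intervals overlapped in each. In replicate 2, where most loops had 20 or more contacts, the other loops that did recurred in 33.9% of cases, so that the difference stayed at 37.6 points. Within each class of contacts, unweighted, the difference was smaller than that, and it was much smaller from 60 contacts on. Among loops of replicate 2 with 20 to 29 contacts, 51.4% of 35 strong loops recurred (interval 35.6 to 67.0%), against 19.3% of 6741 others. The gap was about as wide with 30 to 39 contacts (58.1 and 27.7%) and with 40 to 59 (70.5 and 38.9%). With 60 to 99 contacts the shares were 70.1% of 147 strong loops and 56.6% of 3045 others, and with 100 or more they were 80.2% of 182 (73.8 to 85.4%) and 77.9% of 637 (74.5 to 80.9%), whose intervals overlap.

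**Figure D2:**
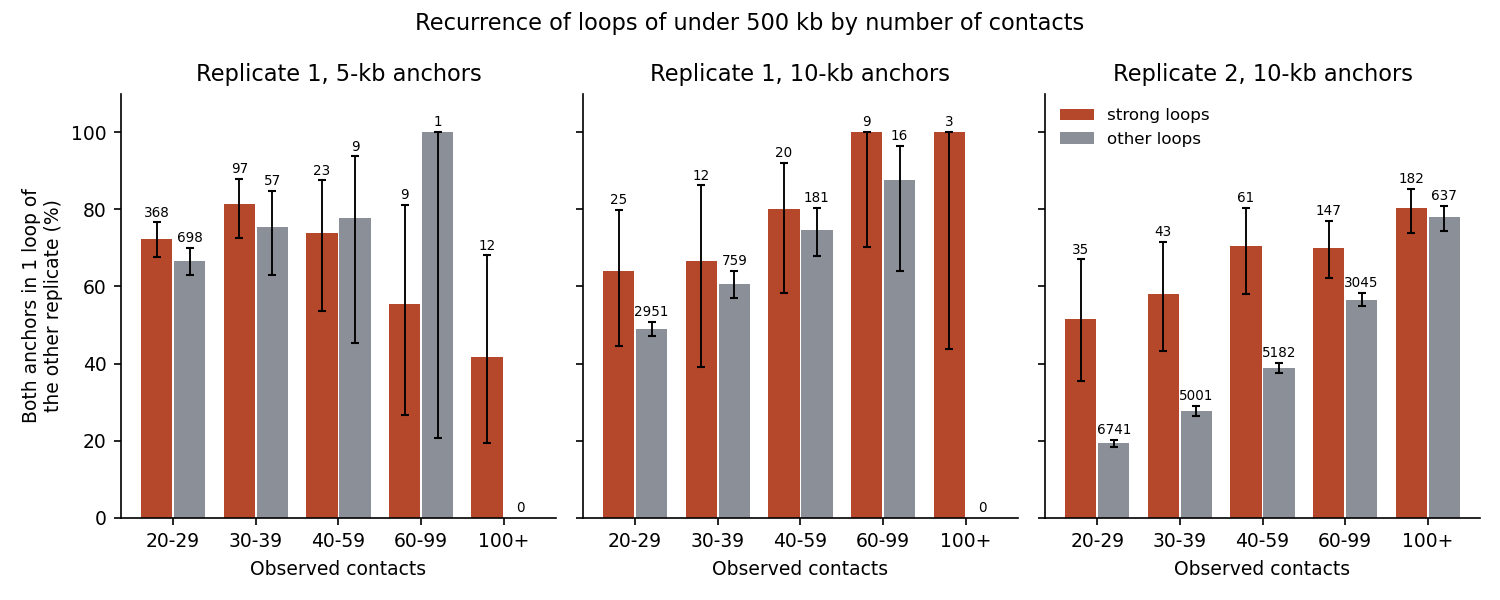
Bars give the share of loops of under 500 kb whose anchors both lay in 1 loop of the other replicate, by observed contacts, for strong loops (left bar of each pair) and other loops (right bar), with 95% Wilson intervals and the number of loops above. In replicate 2 the bars of strong loops stand above the others at 20 to 29 contacts (51.4 and 19.3%) and draw level at 100 or more (80.2 and 77.9%), while in 5-kb loops of replicate 1 the pairs overlap at every number of contacts where both exist.

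Recurrence also moved with the ratio, which was followed over loops with 20 or more contacts. In replicate 2 the share of recurring loops was 15.0% at ratios under 3, 42.7% at 5 to 6, 68.4% at 10 to 12 and 92.3% of the 13 loops at 30 or more, with 66.7% of 15 loops at 20 to 30 below the trend. In replicate 1 the mix of anchor widths changed with the ratio, and each width had its own course. For 5-kb anchors the share was 66.7% at 5 to 6, 70.2% at 6 to 8, 70.1% at 8 to 10 and 79.1% at 10 to 12, and then 69.7% at 12 to 15 and 59.5% of 42 loops at 30 or more (interval 44.5 to 72.96%). For 10-kb anchors it was 32.1% under 3, 62.3% at 5 to 6 and 73.2% at 8 to 10. For 25-kb anchors it was lower at higher ratios, with 36.3% under 3, 21.3% at 5 to 6 and 11.5% of 52 loops at 6 to 8. Some of the strong loops of replicate 1 with most contacts were not found again. Of the 12 strong 5-kb loops with 100 or more contacts 5 recurred (41.7%, 19.3 to 68.0%). Of the 15 strong loops with 25-kb anchors 2 recurred (13.3%, 3.74 to 37.9%), against an unweighted 35.2% of the other 3665 loops of that width, which lies inside the interval. In 9 of the 15 no anchor was found in any loop of replicate 2. The 2 that recurred were chr1:137000001-137025000, given above, and chr6:23075001-23100000 with chr6:23350001-23375000, with 84 contacts and 20.3 times the expectation in replicate 1 and 31 contacts and 31.4 times in replicate 2. All 12 strong 10-kb loops with 60 or more contacts recurred. By length, strong loops of under 50 kb had the lowest shares in both replicates, with 67.8% in replicate 1 and 49.3% in replicate 2 (interval 37.7 to 60.9%), against 47.8 and 17.6% of the other loops of that length. From 100 to 150 kb the shares were 76.6 and 82.8%, against 47.8 and 35.1%.

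A recurring loop could still be weak in the other replicate, and its ratio there gave a measure of strength that the choice did not use. The loops of replicate 2 over the 426 recurring strong loops of replicate 1 had a median ratio of 8.31 (quartiles 6.55 and 10.96), against 4.87 over the recurring other loops, unweighted. The loops of replicate 1 over the 335 recurring strong loops of replicate 2 had a median ratio of 11.4 (quartiles 7.97 and 15.9), against 5.33. Among 5-kb loops of replicate 1 alone the medians were 8.18 and 5.18, and among 10-kb loops 9.96 and 4.77. A ratio of at least 5 was found for 92.7% of the recurring strong loops of replicate 1 and for 91.04% of those of replicate 2, against 47.1 and 55.4% of the recurring other loops. The loops of replicate 1 found over those of replicate 2 had anchors of 3 widths, which were not held equal. In replicate 1 the ratio moved with width, with unweighted medians of 7.24, 4.68 and 3.03 in other loops with 5-kb, 10-kb and 25-kb anchors. Recurring strong loops thus had higher ratios than recurring other loops in the replicate not used to choose them, with this width left unaccounted for. The median ratio in replicate 2 lay under 10 for the loops chosen in replicate 1.

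In 140 cases a strong loop of replicate 1 lay over a strong loop of replicate 2, each paired with a different one. These were 23.6% of the strong loops of replicate 1 (interval 20.4 to 27.2%) and 29.9% of the 468 of replicate 2 (25.9 to 34.2%). Of all loops of under 500 kb, 2.08% in replicate 1 and 1.73% in replicate 2 lay over a strong loop of the other replicate, and the weighted shares of the other loops were 1.77 and 1.32%. The strong loops of replicate 1 with 5-kb anchors contributed 113 pairs, those with 10-kb anchors 25 and those with 25-kb anchors 2, and all 25 of the 10-kb pairs had identical anchors. In the pairs, the median contacts were 28.5 in replicate 1 and 115.5 in replicate 2, whose bins were wider in the 113 pairs with 5-kb anchors. The ratio was higher in replicate 1 in 111 of the 140 pairs, with medians of 15.6 and 12.7. It differed by less than 2-fold in 117 pairs. Where the bins had the same width, in the 25 pairs with identical anchors, the medians were 14.2 in replicate 1 and 14.8 in replicate 2, and 14 of the 25 were higher in replicate 1. Both ratios were 20 or more in 11 pairs and 30 or more in 5.

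**Figure D3:**
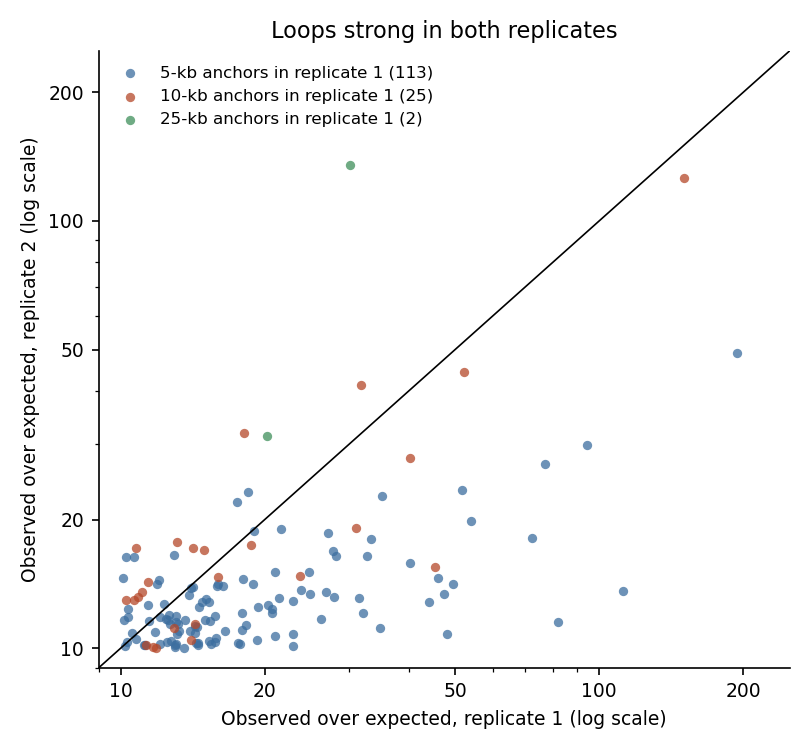
Each point is a pair of strong loops over the same anchors, with the ratio of observed to donut-expected contacts in replicate 1 on the horizontal axis and in replicate 2 on the vertical axis, both on a log scale, coloured by the anchor width in replicate 1. The line marks equal ratios; 111 of the 140 pairs lie below it, most of them with 5-kb anchors in replicate 1, while the 25 pairs with 10-kb anchors lie on both sides.

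Ranked by the lower of both ratios, the first of the 140 pairs joined chr5:66460001-66470000 and chr5:66890001-66900000, 430 kb apart. There 127 contacts were observed in replicate 1, where 0.845 were expected (150 times), and 163 in replicate 2, where 1.30 were expected (126 times). A second pair lay beside it, from chr5:66520001-66530000 to chr5:66920001-66930000, with 33 contacts in replicate 1 (31.8 times the expectation) and 54 in replicate 2 (41.2 times). No single domain held either loop in either replicate. On chromosome 4, chr4:167600001-167610000 and chr4:168080001-168090000 were joined over 480 kb by 36 contacts in replicate 1 (52.2 times) and 30 in replicate 2 (44.4 times), again across domains. The first 3 pairs with identical anchors were thus near the upper limit of length, whereas the median length of the 140 pairs was 75 kb.

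The other identical pairs with high ratios were shorter. Near the end of chromosome 8, chr8:173050001-173060000 with chr8:173200001-173210000 had 212 contacts in replicate 1 and 224 in replicate 2, at 40.3 and 27.8 times the expectation, inside a domain from 173020001 to 173250000 that was called with these boundaries in both replicates. The loop of chr6:158540001-158550000 with chr6:158760001-158770000 had 42 contacts in replicate 1 (31.1 times) and 56 in replicate 2 (19.1 times), with its first anchor at the start of a domain from 158550001 to 158790000 in both. The loop of chr10:14340001-14350000 with chr10:14650001-14660000 had 28 contacts in replicate 1 (18.7 times) and 73 in replicate 2 (17.4 times). Its anchors marked both ends of a level 0 domain in replicate 2 and were held by no single domain in replicate 1. Of the other 4 pairs among the 10 with the largest ratios, the lower of both ratios lay between 14.8 and 18.1, with lengths of 50 to 200 kb. The domain class was the same in both replicates in 67 of the 140 pairs (47.9%). It was the same in 51 of the 113 pairs with 5-kb anchors in replicate 1 (45.1%), whose widths differed between the replicates. Among the 25 pairs with identical 10-kb anchors it was the same in 15 (60%).

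Anchors of strong loops were commonly shared with further loops, slightly less often than those of other loops in replicate 1 and about as often in replicate 2. An anchor overlapped that of at least 1 further loop of the same replicate in 70.5% of the strong loops of replicate 1 (interval 66.7 to 74.0%) and in 89.1% of those of replicate 2 (85.95 to 91.6%), against weighted shares of 74.4 and 88.0% of the other loops. The difference changed sign between the replicates and was smaller than their spread, at -1.42 ± 3.52 percentage points (SD, n = 2). Beside other loops with 20 or more contacts it was -8.74 points in replicate 1 and 0.38 in replicate 2. It depended strongly on the limits, since strong loops with a ratio of 15 or more shared anchors less often than the other loops in both replicates (-14.5 and -14.7 points), and so did those with a ratio of 10 against all 4 backgrounds (-18.9 and -25.9 points). Both anchors were shared in 29.5% of the strong loops of replicate 1, against 29.6% of the other loops, and in 63.9% of those of replicate 2 (59.4 to 68.1%), against 53.9%. At least 4 further loops met the anchors of 55 strong loops of replicate 1 (9.27%, against a weighted 9.25% of the other loops) and of 227 strong loops of replicate 2 (48.5%, against 37.4%). Strong loops of replicate 2 thus had more loops at their anchors than the other loops, and those of replicate 1 did not. The most was 6 further loops in replicate 1 and 14 in replicate 2.

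Anchors shared among strong loops were counted as a description. Strong loops were 3.68% of the loops of under 500 kb in replicate 1 and 1.9% in replicate 2. The share of other loops that met an anchor of a strong loop was not computed. An anchor was shared with another strong loop by 31 strong loops of replicate 1 (5.23%) and 68 of replicate 2 (14.5%), which formed 15 and 29 groups linked by anchors. The largest group of replicate 1 had 3 strong loops, from 168070001 to 168535000 on chromosome 4, and those of replicate 2 had 5 each, from 22040001 to 22480000 on chromosome 3 and from 177830001 to 178180000 on chromosome 4. The anchors with most strong loops had 2 in replicate 1, as at chr4:168480001-168485000, and 3 in replicate 2, at chr4:177960001-177970000 and chr7:166250001-166260000. Over all strong loops, those in groups included, the median distance between midpoints to the nearest strong loop was 735 kb in replicate 1 (quartiles 257.5 and 1885 kb) and 835 kb in replicate 2 (quartiles 205 and 2185 kb). Another strong loop lay within 1 Mb of 346 of the 593 in replicate 1 and of 267 of the 468 in replicate 2. By windows of 1 Mb, the most strong loops of replicate 1 were 5 of 14 loops from 176000001 on chromosome 5, where replicate 2 had 2, and then 4 of 15 from 168000001 on chromosome 4, where replicate 2 had 3. In replicate 2 they were 5 of 31 from 22000001 on chromosome 3, where replicate 1 had 2, and 5 of 27 from 166000001 on chromosome 7, where replicate 1 had 3. These windows and groups were selected for their counts and are given as a description.

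Strong loops lay within larger loops somewhat more often than the other loops did, and seldom enclosed a smaller one. Both anchors lay between the anchors of another loop in 42.7% of the strong loops of replicate 1 (interval 38.7 to 46.7%) and in 57.9% of those of replicate 2 (53.4 to 62.3%), against weighted shares of 39.4 and 50.1% of the other loops. The value of replicate 1 was within the interval of the strong loops and that of replicate 2 below it. Among loops of replicate 1 with 10-kb anchors the shares were 39.1% of strong and 35.4% of other loops. With loops of the other anchor widths removed from the list, and thus fewer loops to lie in, the difference was -3.37 points. A smaller loop lay between the anchors of 8.43% of the strong loops of replicate 1 (6.45 to 10.9%) and 17.5% of the 468 of replicate 2 (14.4 to 21.2%), against 9.004 and 20.6% of the other loops, both within the intervals.

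The domains called by HiTAD placed strong loops nearer to boundaries in replicate 2 than in replicate 1. Each loop was classed by the smallest domain that contained it, with an anchor counted as at a boundary when it reached the 2 kb on either side. Strong loops were embedded in a domain, away from its boundaries, in 281 cases in replicate 1 (47.4%, interval 43.4 to 51.4%) and 107 in replicate 2 (22.9%, 19.3 to 26.9%), against weighted shares of 51.8 and 32.8% of the other loops. A single anchor was at a boundary in 225 strong loops of replicate 1 (37.9%, 34.1 to 41.9%) and 209 of replicate 2 (44.7%, 40.2 to 49.2%), against 31.6 and 39.0%. Both boundaries of a domain were joined by 27 strong loops of replicate 1 (4.55%, 3.15 to 6.54%) and 82 of replicate 2 (17.5%, 14.4 to 21.2%), against 4.44 and 11.3%. No single domain held 60 strong loops of replicate 1 (10.1%) and 70 of replicate 2 (15.0%), against 12.2 and 17.0%. In both replicates strong loops were thus less often embedded than the other loops and more often had 1 anchor at a boundary, with a mean difference of -7.15 ± 3.89 percentage points for the embedded and 6.02 ± 0.481 for the 1-anchor class (SD, n = 2). The excess at both boundaries was seen in replicate 2 alone. In replicate 1 the embedded difference turned to 1.92 points at a ratio of 15 or more. Of its other loops with 20 or more contacts, a weighted 51.1% were embedded and 34.6% had 1 anchor at a boundary. Both values lie inside the intervals of the strong loops of replicate 1. In replicate 2 the values for such loops were 32.8 and 40.1%.

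**Figure D4:**
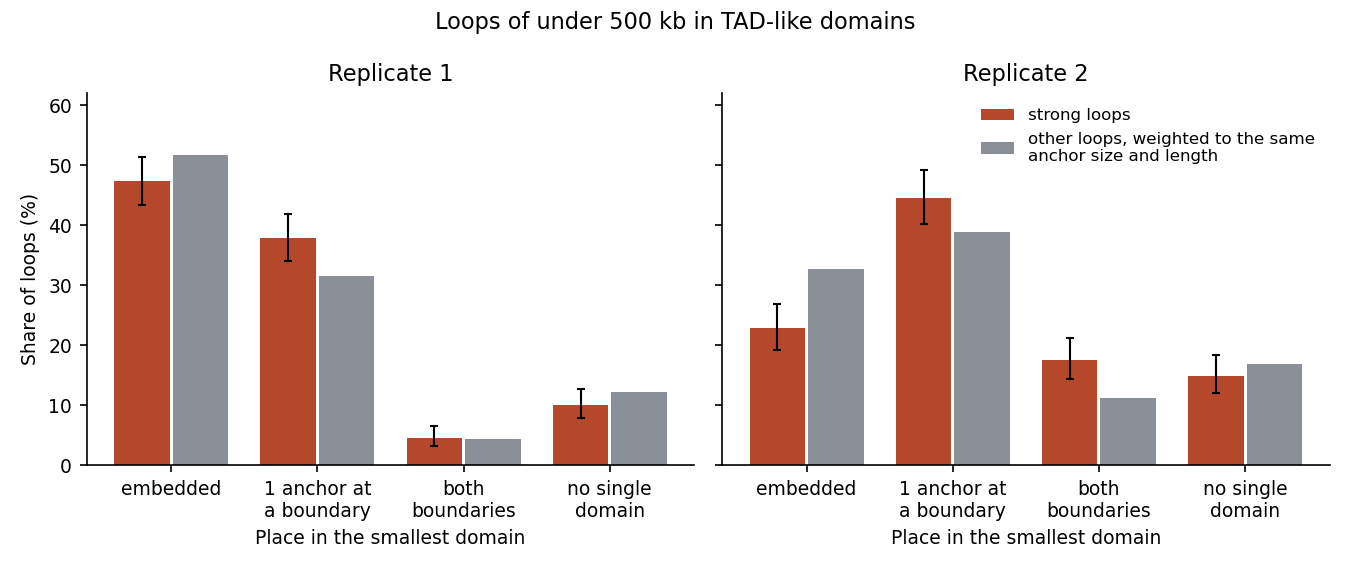
Bars give the share of strong loops (left bar of each pair, with 95% Wilson intervals) and of other loops weighted to the same anchor widths and lengths (right bar) in each class of place within the domains. In replicate 2 strong loops are embedded less often than the others (22.9 and 32.8%) and join both boundaries more often (17.5 and 11.3%), while in replicate 1 both kinds of loop join both boundaries about equally often (4.55 and 4.44%).

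Anchor width moved with these classes. In replicate 1, strong loops with 5-kb anchors joined both boundaries in 2.36% of cases (12 of 509), against 3.41% of the other 5-kb loops, whereas those with 10-kb anchors did so in 17.4% (12 of 69, interval 10.2 to 28.0%), against 10.3%. The interval for 10-kb anchors contains the share of the other loops. For a single anchor at a boundary, 5-kb strong loops had 39.3% against 30.6%, and 10-kb strong loops 30.4% against 38.3%, so that the direction depended on the width. Domain boundaries were called on a grid of 10 kb. Measured as a distance instead, the farther of the anchor centres lay a median of 15 kb from the nearest boundary in strong loops of replicate 2, against 35 kb in the other loops, and 32.5 kb in those of replicate 1, against 35 kb.

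The level of the domains around strong loops differed from that around other loops mainly where both boundaries were joined. There the domain was of level 0 in 55.6% of 27 cases in replicate 1 and 53.7% of 82 in replicate 2, against 40.3 and 36.7% for the other loops, unweighted. With 1 anchor at a boundary it was so in 45.3 and 44.98%, against 42.8 and 40.7%. Among embedded strong loops the smallest domain was a level 0 domain in 50.2% of cases in replicate 1 and 51.4% in replicate 2, against 50.5 and 49.6% of the embedded other loops. The median size of these domains was 160 kb for strong and 230 kb for other loops of replicate 1 and 210 and 240 kb in replicate 2, unweighted, and the other loops were also longer. The domains whose boundaries were both joined by strong loops were found again in the other replicate, with each boundary within 10 kb, in 21 of 27 cases in replicate 1 (77.8%) and 50 of 82 in replicate 2 (60.98%), against 58.7 and 52.6% for the other loops, unweighted. Of the strong loops that no single domain held, 10 of 60 in replicate 1 and 33 of 70 in replicate 2 crossed more than 1 boundary of level 0 domains, and the rest crossed 1. Such loops across domains recurred in 48 of the 60 cases in replicate 1 (80%, against an unweighted 40.6% of the other loops across domains) and in 40 of the 70 in replicate 2 (57.1%, against 21.6%).

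Strong loops were concentrated toward the ends of the chromosomes. The midpoint lay within 20% of the chromosome length from either end in 64.2% of the strong loops of replicate 1 (interval 60.3 to 68.0%) and in 61.3% of those of replicate 2 (56.8 to 65.6%), against weighted shares of 55.9 and 52.4% of the other loops. The mean difference was 8.64 ± 0.374 percentage points (SD, n = 2). It was nearly lost for strong loops with a ratio of 10 against all 4 backgrounds, with -3.21 points in replicate 1 and 3.53 in replicate 2. In replicate 1 it had the same sign for both narrower anchor widths, with 63.9% against 56.9% for 5-kb and 69.6% against 50.4% for 10-kb anchors. Beside other loops with 20 or more contacts it was 4.17 points in replicate 1 and 9.84 in replicate 2. With each chromosome divided into 10 bins of equal length, strong loops made up 5.37% of the loops of under 500 kb in bin 10 and 1.83% in bin 5 in replicate 1, and 2.504 and 0.995% in replicate 2. Bin 10 held 123 strong loops in replicate 1 and 88 in replicate 2, and bin 5 held 16 and 13. Bin 1 had 4.43% in replicate 1 and 2.02% in replicate 2. The intervals of bins 3 to 6 overlapped each other in both replicates.

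**Figure D5:**
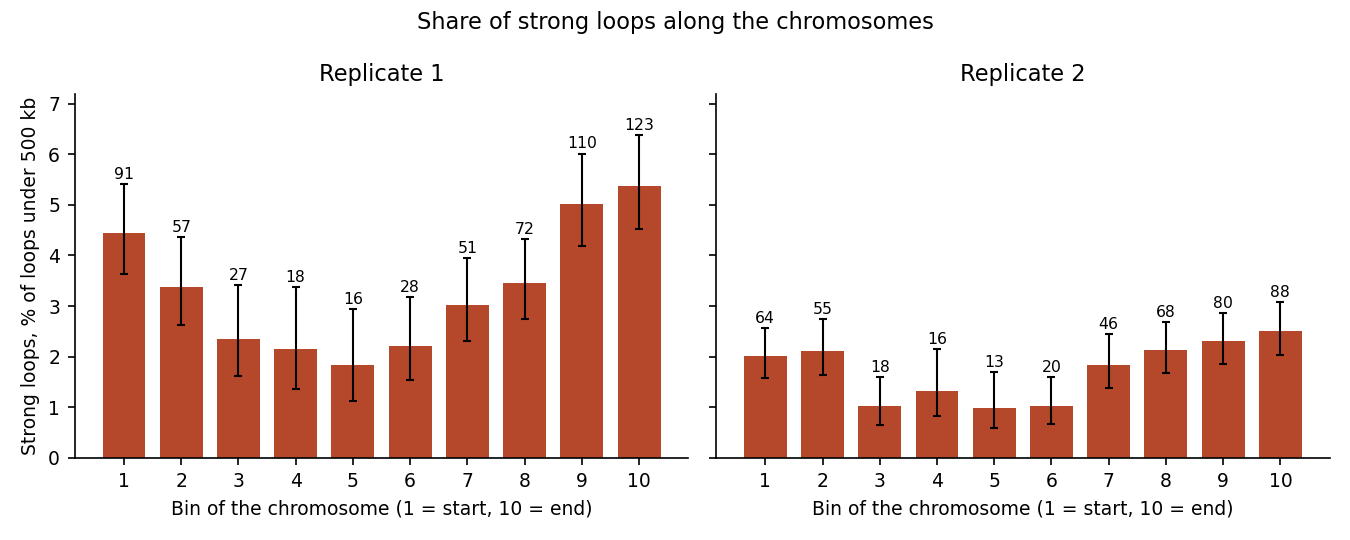
Bars give the strong loops as a percentage of all loops of under 500 kb in each of 10 bins of equal length, counted from the start of each chromosome and summed over all chromosomes, with 95% Wilson intervals and the number of strong loops above. In both replicates the share is lowest in bin 5 (1.83 and 0.995%) and highest in bin 10 (5.37 and 2.504%).

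Every chromosome contributed strong loops to both replicates. Their share of the loops of under 500 kb lay between 2.90% on chromosome 4 and 4.24% on chromosome 2 in replicate 1, and between 1.62% on chromosome 1 and 2.49% on chromosome 5 in replicate 2. Per 100 Mb, chromosome 5 had the most in both, with 33.1 strong loops in replicate 1 and 29.5 in replicate 2, and chromosome 4 the fewest, with 19.4 and 18.2. Strong loops also lay among many other loops. A median of 11 further loops had their midpoints within 500 kb of that of a strong loop in replicate 1 and 17 in replicate 2, against 10 and 15 for the weighted other loops.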

How the data were processed

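Hi-C libraries of B73 leaf tissue at stage v04 were analysed for replicates 1 and 2. The authors mapped the reads to B73 RefGen_v4 with Juicer, called loops with HICCUPS of Juicer Tools 1.9.9 for replicate 1 and 1.14.08 for replicate 2, and called hierarchical domains with HiTAD at default parameters, in each replicate alone. The deposited loop lists give whole-number counts of contacts, not normalized. The deposited expectations are a signal, namely the contacts that the software of the authors predicted from 4 local backgrounds, each with a false discovery rate (q-value, also as deposited). The lists hold calls only, so that pairs of regions without a call were not measured, and differences in anchor width and software bear on every comparison between the replicates.

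The strong loops were those with a ratio of observed to donut-expected contacts of 10 or more, 20 or more contacts and under 500 kb between anchor starts. Since this choice used the contacts, no test was run on them. Overlap of anchors needed at least 1 bp, and where several loops of the other replicate overlapped both anchors, the one with most contacts was taken. Domain boundaries were given 2 kb on either side, and domains were counted as found again with both boundaries within 10 kb. The largest coordinate listed for a chromosome served as its length. Python 3.11.15, numpy 2.4.6, pandas 2.3.3, scipy 1.17.1 and matplotlib 3.10.9 were used, and the comparison of coordinates was tested on simulated lists with known answers. The members, the lists and the loops named were chosen with earlier results of these data known. The loops named were the 5 with the largest ratio, the 3 with most contacts, the longest and shortest of each replicate, the neighbours of the limits, the 10 pairs with identical anchors and the largest ratios, the densest anchors and windows, and 2 with 25-kb anchors, chosen after their values were seen. Sequence and genes at the anchors were not analysed here, and loops on unplaced sequence were left out of the comparisons. The alternatives for the limits, anchors and domains are given in the closing part. The length classes of 50 kb used for weighting were not varied.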

Additional observations from a re-analysis of the deposited data

Results flagged for a closer look

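On Chr0, the unplaced sequence that was left out of every comparison, 38 of 156 loops of under 500 kb met the limits of ratio and contacts in replicate 1. In replicate 2, 22 of 144 such loops on Chr0 did. On chromosomes 1 to 10 the shares were 3.68% in replicate 1 (593 of 16114) and 1.9% in replicate 2 (468 of 24662).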

How the results depend on the processing

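No paired analysis was possible because both replicates belong to 1 group, and no test was run whose call could change. Values below are means of both replicates. Strong loops averaged 530.5 per replicate (2.79% of loops under 500 kb). With a ratio limit of 8 they averaged 1174 (5.87%), with 15 134.5 (0.750%), with 40 or more contacts 240 (1.07%), with a ratio of 10 against all 4 backgrounds 93.5 (0.520%), and with 10-kb anchors alone 268.5 (1.46%). Recurrence, 71.7%, was 68.0% at a ratio of 8, 72.8% at 15, 69.1% with 40 contacts, 73.6% with all 4 backgrounds, 69.8% with all q-values at most 0.01, 47.7% with 10-kb anchors alone in both lists (75.4% in replicate 1 and 20.1% in replicate 2), 14.4% for identical anchors and 89.0% for anchors within 10 kb. The setting of 10-kb anchors alone removed loops from replicate 1 only, which left replicate 2 loops fewer to recur in. The shared-anchor share, 79.8%, was 66.1% at a ratio of 15, 58.2% with all 4 backgrounds and 58.5% for identical anchors. By the largest domain instead of the smallest, 53.7% were embedded and 27.8% had 1 anchor at a boundary. With both anchors required to lie wholly inside the domain, and the flanks kept, 1 anchor had 23.9% and no single domain 27.2%. All 4 backgrounds gave 34.0 and 18.1%, and 10-kb anchors gave 17.6% for no single domain. The outer 20% at either end held 60.1% with 40 contacts, 53.6% with all 4 backgrounds and 65.4% with 10-kb anchors, and the outer 10% held 34.3%. Merged pixels were found in 75.7% at a ratio of 15 and 69.4% with all 4 backgrounds. With 10-kb anchors alone in both lists, 34.8% lay inside a larger loop.

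Of the differences between strong and other loops, those in recurrence and merged pixels kept their sign in each replicate under every alternative run. Those in position near the ends and in place inside a larger loop kept it in the mean only. With all 4 backgrounds the 8.64 points near the ends became 0.16 (-3.21 in replicate 1). With loops of other anchor widths removed from the lists, the difference inside a larger loop was -3.37 in replicate 1. The embedded share turned to 0.41 points at a ratio of 15 and 0.21 with all 4 backgrounds, and the both-boundary share to -1.08 and -2.10. The 1-anchor share turned to -0.66 with all 4 backgrounds and -1.10 with 10-kb anchors. The share held by no single domain turned to 2.54 with all 4 backgrounds, 1.45 with 10-kb anchors and 1.12 beside other loops with 20 or more contacts, an alternative chosen after seeing the data. The shared-anchor difference, -1.42 points, was 2.14 at a ratio of 8, -14.6 at 15, -22.4 with all 4 backgrounds, -11.6 with 40 contacts (-26.4 in replicate 1), and from -3.91 to 1.06 with either replicate left out. The cause was not tested. The place of strong loops in domains and the sharing of their anchors therefore depended on the limits. Small expectations limit the ratio, and replicate 1 loops rest on few contacts.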
